A study of Mus musculus with 6 samples.

Results

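The immunoglobulin heavy chain variable (Ighv) segments are the gene pieces that encode most of the antigen-binding domain of an antibody heavy chain. They were taken as every gene of the raw exon count table whose symbol begins with Ighv, which gave 114 of the 39017 genes counted. The libraries came from iGBs, B cells that take on a germinal center-like phenotype when splenic B cells are cultured on feeder cells presenting CD40L and BAFF, here with IL-4 and for 3.5 days. The comparison asked how the transcriptome differs when B cells lose Prmt1, a protein arginine methyltransferase. Control libraries (n = 3) were from Cγ1-cre mice and Prmt1-null libraries (n = 3) from Prmt1 F/F Cγ1-cre mice, all labelled C57BL6/J, with 1 library per mouse and with 2 females and 1 male in each group. Cre was therefore present in every sample, driven from the Cγ1 constant gene, which lies in the heavy chain locus itself, and a floxed gene is removed only in cells that have transcribed that constant gene. Mouse ages were not given in the sources used here.

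A developing B cell builds its heavy chain gene by joining 1 D segment to 1 J segment and then 1 V segment to the DJ unit, using the Rag recombinase. Each V segment carries its own promoter, and the promoter of the joined segment then drives the heavy chain transcript, so in a population of mature B cells the reads over a segment reflect how many cells chose it and how much heavy chain RNA each makes. In bulk RNA these cannot be told apart. Class switching, as to IgG1 in these cultures, replaces the constant region and leaves the V segment in place. Usage is given below as the percent of the summed Ighv counts of a library that fell on a segment or a family.

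The 114 segments spanned 2426.2 kb on the minus strand of chromosome 12 (chr12:113574245-116000461, mm10), between the Ighv gene nearest to the D segments, Ighv2-1, and the one farthest from them, Ighv1-85. GENCODE M21, the annotation used for positions, lists 185 Ighv genes. It calls 108 of those counted functional-type V genes and 6 pseudogenes. They fell into 16 families, of which Ighv1 was the largest with 55 segments, followed by Ighv2 with 10 and by Ighv5 and Ighv8 with 9 each. Their annotated exon length ranged from 294 to 480 bases, with a median of 353.

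Family members are close copies, which limits how well reads can be assigned. Over the 120 bases that end at the conserved cysteine codon before the V-D joint, segments of the same family were identical at a median of 89.2% of positions (1557 pairs) and segments of different families at 55.0% (4329 pairs). The codons for tyrosine-tyrosine-cysteine or tyrosine-phenylalanine-cysteine that mark this end were found in 110 of the 114 segments (96.5%). The letters searched, on the coding strand only, were TAT or TAC, then TAT, TAC, TTT or TTC, then TGT, and the last match in a transcript was taken. The authors counted primary alignments of reads with at most 2 genomic matches, so a read common to several segments was dropped or placed on 1 of them. Of the 114 segments, 97 shared at least 1 window of 50 bases with a transcript of another gene, and 14 shared over 50% of their windows.

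The pairs of germline sequences printed here were chosen because the segment named first stood apart in 1 library, as described below. In the first 3 pairs its relative in the same family did not, or did less so, and the fourth pair shows segments that reads can hardly tell apart. Each is the 120-base stretch ending at the cysteine codon, read 5′ to 3′ on the coding strand from GENCODE M21 transcripts, with capitals at the bases that differ between the members of a pair. Ighv3-8 (chr12:114322327-114322801) and Ighv3-6 (chr12:114288152-114288582) differed at 10 of the 120 positions.
Ighv3-8: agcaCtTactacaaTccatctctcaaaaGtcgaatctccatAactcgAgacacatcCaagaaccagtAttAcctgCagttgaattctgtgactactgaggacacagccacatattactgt
Ighv3-6: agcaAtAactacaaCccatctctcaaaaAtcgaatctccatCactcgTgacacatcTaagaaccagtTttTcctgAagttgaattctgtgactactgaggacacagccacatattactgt
Ighv2-9 (chr12:113879096-113879541) and Ighv2-2 (chr12:113588267-113588702), a D-proximal pair, differed at 11 positions.
Ighv2-9: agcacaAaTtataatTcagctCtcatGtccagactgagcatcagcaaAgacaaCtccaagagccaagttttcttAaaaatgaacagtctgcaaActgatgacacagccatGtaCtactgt
Ighv2-2: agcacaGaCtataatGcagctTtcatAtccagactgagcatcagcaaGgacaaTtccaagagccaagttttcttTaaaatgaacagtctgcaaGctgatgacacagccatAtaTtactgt
Ighv9-1 (chr12:114093928-114094358) and Ighv9-3 (chr12:114140692-114141122) differed at 4 positions.
Ighv9-1: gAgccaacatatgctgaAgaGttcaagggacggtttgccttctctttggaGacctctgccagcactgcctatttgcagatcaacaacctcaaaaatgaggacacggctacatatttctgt
Ighv9-3: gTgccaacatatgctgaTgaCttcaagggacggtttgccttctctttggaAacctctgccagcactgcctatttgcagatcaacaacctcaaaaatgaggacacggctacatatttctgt
Ighv1-72 (chr12:115757984-115758461), the segment used by many antibodies to the hapten NP in C57BL/6 mice, differed from Ighv1-62-3 (chr12:115460999-115461485) at 1 position of this stretch.
Ighv1-72: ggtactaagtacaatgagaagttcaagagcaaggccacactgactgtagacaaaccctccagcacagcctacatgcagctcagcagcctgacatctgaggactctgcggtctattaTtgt
Ighv1-62-3: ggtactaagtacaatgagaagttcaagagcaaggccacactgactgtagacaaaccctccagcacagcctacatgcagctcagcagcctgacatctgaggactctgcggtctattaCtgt
Of the 50-base windows of Ighv1-72, 68.3% also occurred in Ighv1-62-3, so the counts of this pair are uncertain, and both were high in the same library.

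Library totals ranged from 45343250 to 62774232 counts. Normalized counts of Prmt1 were 3964.5, 3924.5 and 4838 in Control against 1744.5, 1477.7 and 1477.5 in Prmt1-null libraries (log2 fold change -1.44, SE 0.095, adjusted p = 1.11e-05 by edgeR's quasi-likelihood test, adjusted over 18268 genes by the Benjamini-Hochberg method). The 7 B cell markers were tested and none was called (1.18% of all genes were, so that few calls could fall on any short list). Their summed level was 6480 to 6810 CPM in Control and 6890 to 7040 CPM in Prmt1-null libraries, so the groups did not overlap. Markers of T cells (13.5 to 17 CPM), myeloid cells (3.53 to 5.53 CPM) and fibroblast feeder cells (27.5 to 39.3 CPM) were low in every library. Thy1, which was on both the T cell and the feeder list, had a mean of 734 normalized counts. The other T cell genes tested had means of 10.569 to 36.726. All 7 feeder genes tested had a log2 fold change above 0 (median 0.284), and none was called. For plasma cells 4 genes were tested and none was called, and all 4 had a log2 fold change above 0. Their summed level was 827 to 909 CPM in Control and 942 to 1050 CPM in Prmt1-null libraries, again without overlap.

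The Ighv segments took 36103, 52084 and 41125 counts in Control replicates 1, 2 and 3 and 43086, 44566 and 46524 in Prmt1-null replicates 1, 2 and 3. This was 0.0796%, 0.0830% and 0.0815% of all counts in Control and 0.0775%, 0.0733% and 0.0803% in Prmt1-null libraries. The groups overlapped (means 0.0814% ± 0.00168 and 0.0770% ± 0.00352, SD, n = 3 each, two-sided exact permutation test p = 0.20, where 3 against 3 libraries cannot go below 0.10). The difference of -0.00431 percentage points came to -0.00245 without Prmt1-null replicate 2 and to -0.00595 without Prmt1-null replicate 3, where the groups no longer overlapped (exact permutation p = 0.10, the smallest possible). At this depth 3 counts correspond to 0.00576% to 0.00831% of the Ighv counts of a library. At least 3 counts were reached by 107, 108 and 108 segments in Control and by 109, 109 and 110 in Prmt1-null libraries. The groups did not overlap (exact permutation p = 0.10, the smallest possible). Ighv16-1 had no counts in any library.

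One Control library stood apart from the other 5 in its Ighv profile, and results below that rest on it are given with and without it. The Bray-Curtis distance between 2 usage profiles, which is 0 for equal and 1 for disjoint profiles, was 0.206 to 0.230 in the 5 pairs that included Control replicate 3. In the 10 pairs without it the distance was 0.0548 to 0.0861, with a median of 0.0663, whether the libraries were of the same or of different genotype. Among the 96 segments with a mean usage of at least 0.1%, 21 lay below and 11 lay above all other libraries by at least 1.5-fold in Control 3, whereas 0 to 2 did so in either direction in any other library. At 2-fold or more Control 3 had 11 segments below and 1 above, and the other libraries had none.

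The light chain did not show this. Distances over the 104 kappa variable (Igkv) segments were 0.0473 to 0.0532 in pairs with Control 3 and 0.0408 to 0.0537 in pairs without it, and none of 85 Igkv segments stood 1.5-fold outside the other libraries in any library. The heavy chain joining segments did show it. Ighj1 took 17.7%, 18.5% and 30.4% of Ighj counts in Control 1, 2 and 3 and 19.8%, 21.2% and 19.5% in the Prmt1-null libraries, with Control 3 above the rest. Ighj4 took 51.9%, 51.0% and 40.6% against 49.1%, 44.6% and 48.3%, with Control 3 the lowest. Ighg3, the IgG3 constant gene, had 446.23 normalized counts in Control 3 and 987.71 to 1542 in the other libraries. In the summed B cell markers (6810 CPM), T cell markers (16.1 CPM) and the Ighv share of all counts Control 3 lay within the range of the other libraries, while it was the highest library in the summed B-1 cell markers (94.1 CPM) and in the summed D and J segments (255 CPM). What set this library apart was not tested. All reads had been assigned on the mm10 reference, and whether the heavy chain locus of this library matches that reference was not tested either, so its usage values hold for the reference segments only.

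**Figure D1:**
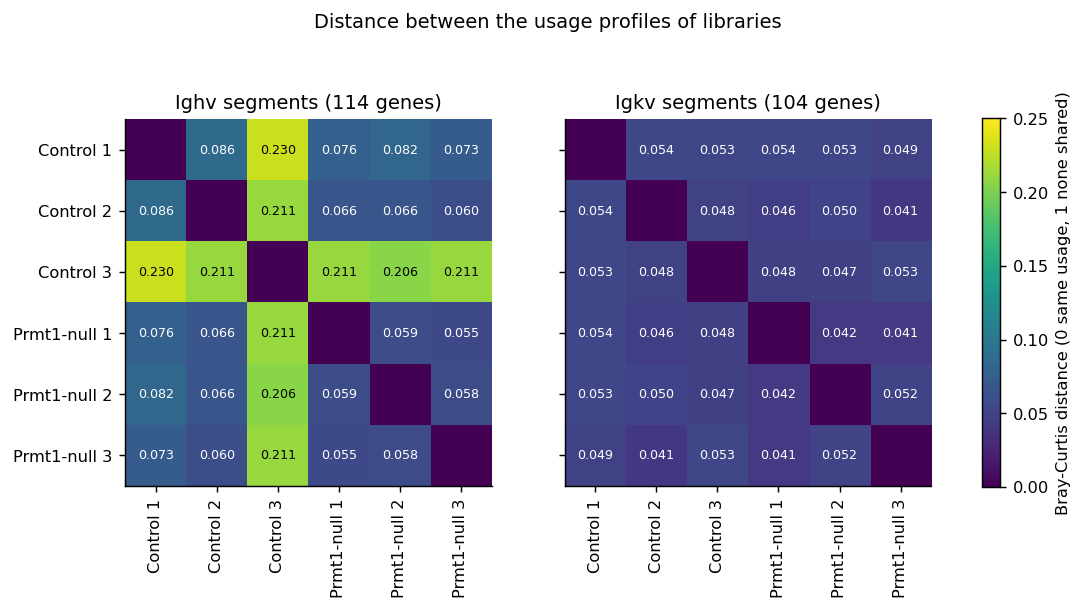
Bray-Curtis distance between the usage profiles of each pair of libraries, for the 114 Ighv segments (left) and the 104 Igkv segments (right), on 1 colour scale. The 5 Ighv pairs with Control 3 lie at 0.206 to 0.230, while every other pair in both panels lies at or below 0.0861.

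Usage was broad. A mean usage of at least 1% was reached by 39 segments, which together held 73.4% of the Ighv counts, and 18 segments stayed under 0.1% with 0.68% in all. The effective number of segments, the number of equally used segments that would give the same Shannon entropy, was 70.5, 69.0 and 66.5 in Control and 68.3, 69.6 and 68.9 in Prmt1-null libraries. These overlapped (exact permutation p = 0.90), also without Control 3 (difference in means -0.83, exact permutation p = 0.40, smallest possible 0.10). The 10 segments leading in each library itself, which need not be the same ones, held 31.9%, 33.2% and 32.1% against 33.0%, 32.2% and 32.4% (exact permutation p = 0.70, and 1.0 without Control 3). By mean usage over all libraries, the same 10 segments led when counts were divided by exon length.

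Ighv9-3 and Ighv3-8 were the most used segments. Ighv9-3 had a usage of 4.76%, 4.18% and 4.10% in Control 1, 2 and 3 and of 5.03%, 4.66% and 4.61% in the Prmt1-null libraries. The groups overlapped and all libraries were close together. Ighv3-8 was higher than Ighv9-3 in 4 of 6 libraries, with 5.17% and 5.41% in Control 1 and 2 and 4.72%, 4.93% and 4.79% in the Prmt1-null libraries. In Control 3 it was 1.38% (95% Wilson interval 1.27% to 1.49%, counting error only), which was 0.279 times the median of the others. Its relative Ighv3-6 had 3.74%, 3.75% and 4.13% against 3.74%, 3.24% and 3.82%, and Control 3 was here the highest library.

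Ighv2-9 had 3.26%, 2.95% and 0.822% in Control and 3.35%, 3.35% and 3.40% in Prmt1-null libraries. The interval for Control 3 (0.739% to 0.914%) was far from every other value, at 0.245 times their median. Its relative Ighv2-2 did not show this, with 1.48%, 1.92% and 2.12% against 2.07%, 2.12% and 2.06%. Ighv1-9, the fourth in usage, had 3.25%, 3.60% and 4.12% against 3.64%, 3.53% and 3.02%, and Ighv8-8 had 2.22%, 2.85% and 3.87% against 2.51%, 3.01% and 2.53%. Both were highest in Control 3.

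The next segments showed the same split. Ighv1-26 (2.19%, 2.61% and 3.19% against 2.36%, 2.21% and 2.58%) was highest in Control 3, and Ighv8-12 (2.01%, 2.59% and 2.56% against 2.59%, 2.66% and 2.53%) was similar in all libraries but Control 1. Ighv3-1 (2.47%, 2.91% and 1.42% against 2.76%, 2.38% and 2.82%) and Ighv1-4 (2.28%, 2.35% and 0.907% against 2.26%, 2.24% and 2.33%) were lowest in Control 3. Ighv9-1 had 2.60%, 1.94% and 1.02% against 2.32%, 2.21% and 2.16%, so that this member of the printed Ighv9 pair was low in Control 3 while Ighv9-3 was 0.88 times the median of the others. Ighv14-2 had 1.84%, 2.26% and 1.69% against 2.16%, 1.92% and 1.97%.

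Outside Control 3 the leading segments varied little. Across the other 5 libraries, of both genotypes, the coefficient of variation of usage over the 30 leading segments had a median of 9.36%, from 2.0% for Ighv1-4 to 20.3% for Ighv1-72, where counting alone gives a median of 3.64%. None of these 30 segments was a pseudogene.

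**Figure D2:**
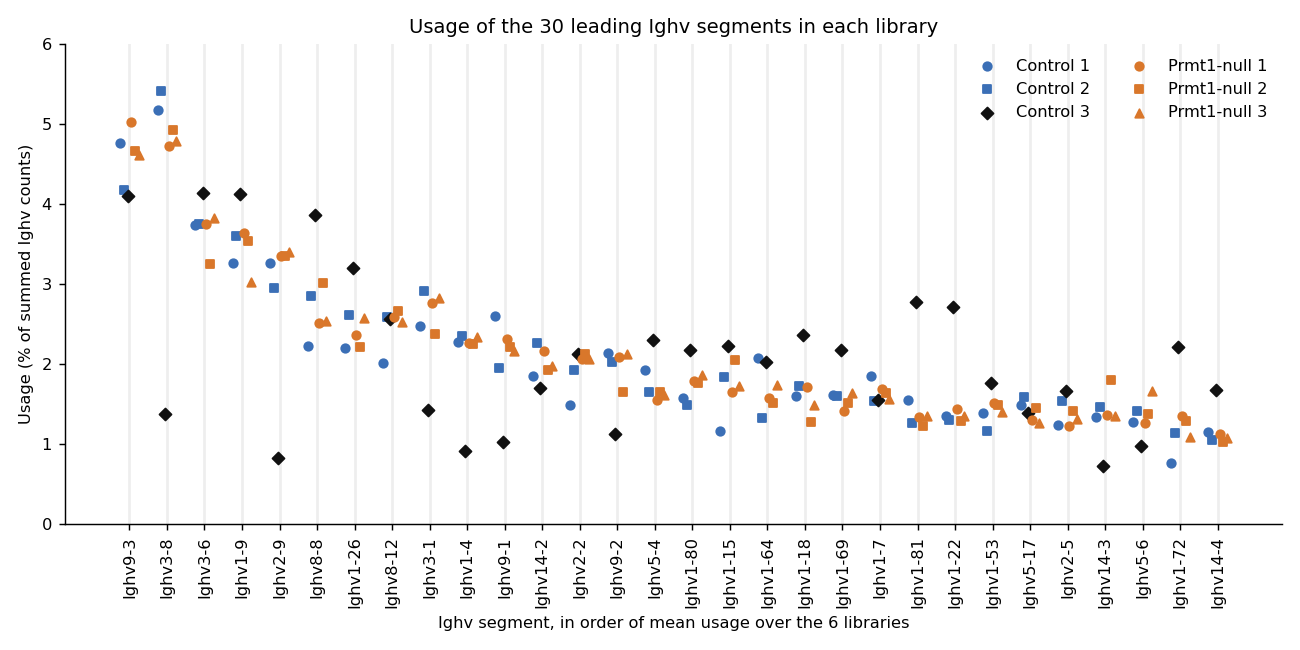
Usage of the 30 leading Ighv segments, as percent of the summed Ighv counts of each library, with 1 point per library in order of mean usage (blue, Control 1 and 2; black diamonds, Control 3; orange, Prmt1-null). Control 3 falls away from the other points at Ighv3-8 (1.38%), Ighv2-9 (0.822%) and Ighv1-4 (0.907%), while the other 5 libraries of both genotypes lie together.

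The departures of Control 3 went both ways and followed neither 1 family nor 1 stretch of the locus alone. Of the 96 segments, 38 were below and 39 were above all other libraries in Control 3. The same counts were 14 and 21 in Control 1 and 14 and 14 in Control 2. They were 12 and 7, 10 and 8, and 8 and 7 in Prmt1-null replicates 1, 2 and 3. The locus was split into 3 parts of 38 segments each, and only the departures of Control 3 were counted by part. In the part nearest to the D segments 17 of 32 were below and 6 above, in the middle part 13 of 31 were below and 13 above, and in the distal part 8 of 33 were below and 20 above. The D-proximal part held 41.2%, 41.0% and 33.6% of Ighv counts in Control and 41.7%, 40.3% and 41.6% in Prmt1-null libraries. The distal part held 27.8%, 27.8% and 38.1% against 28.1%, 29.6% and 28.6%, and without Control 3 its groups no longer overlapped, with means of 27.8% and 28.8% (exact permutation p = 0.20). The middle part held 31.0%, 31.3% and 28.3% against 30.2%, 30.2% and 29.8%, and it too no longer overlapped without Control 3, with means of 31.13% and 30.05% (exact permutation p = 0.10, the smallest possible). With all libraries the proximal share did not differ between genotypes (exact permutation p = 0.50), and without Control 3 the means were 41.1% and 41.2% (exact permutation p = 1.0).

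The segments farthest below the others in Control 3 were Ighv8-11 and Ighv1-14. These and the examples in the next sentences were chosen after their values were seen. Ighv8-11, a distal segment, had 0.673% and 0.914% in Control 1 and 2 and 0.736%, 0.837% and 0.806% in Prmt1-null libraries, but 0.0875% in Control 3 (36 counts, 95% Wilson interval 0.0632% to 0.121%). Ighv1-14 had 1.07%, 0.893% and 0.160% against 0.970%, 0.841% and 1.07%. Its identifier carries the symbol Ighv1-16 in GENCODE M21. Ighv2-6-8, D-proximal, had 1.47%, 1.21% and 0.233% against 0.986%, 1.10% and 1.26%.

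On the other side, Ighv5-16 had 0.427%, 0.253% and 0.907% in Control and 0.330%, 0.368% and 0.340% in Prmt1-null libraries, and was 2.67 times the median of the others in Control 3. The distal Ighv1 segments Ighv1-81 (1.55%, 1.26% and 2.77% against 1.34%, 1.22% and 1.34%) and Ighv1-72 (0.764%, 1.13% and 2.21% against 1.35%, 1.28% and 1.08%) were at 2.07 and 1.96 times the median of the others there. Ighv1-22, from the middle part, was at 2.01 times with 1.35%, 1.29% and 2.72% against 1.43%, 1.28% and 1.35%.

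**Figure D3:**
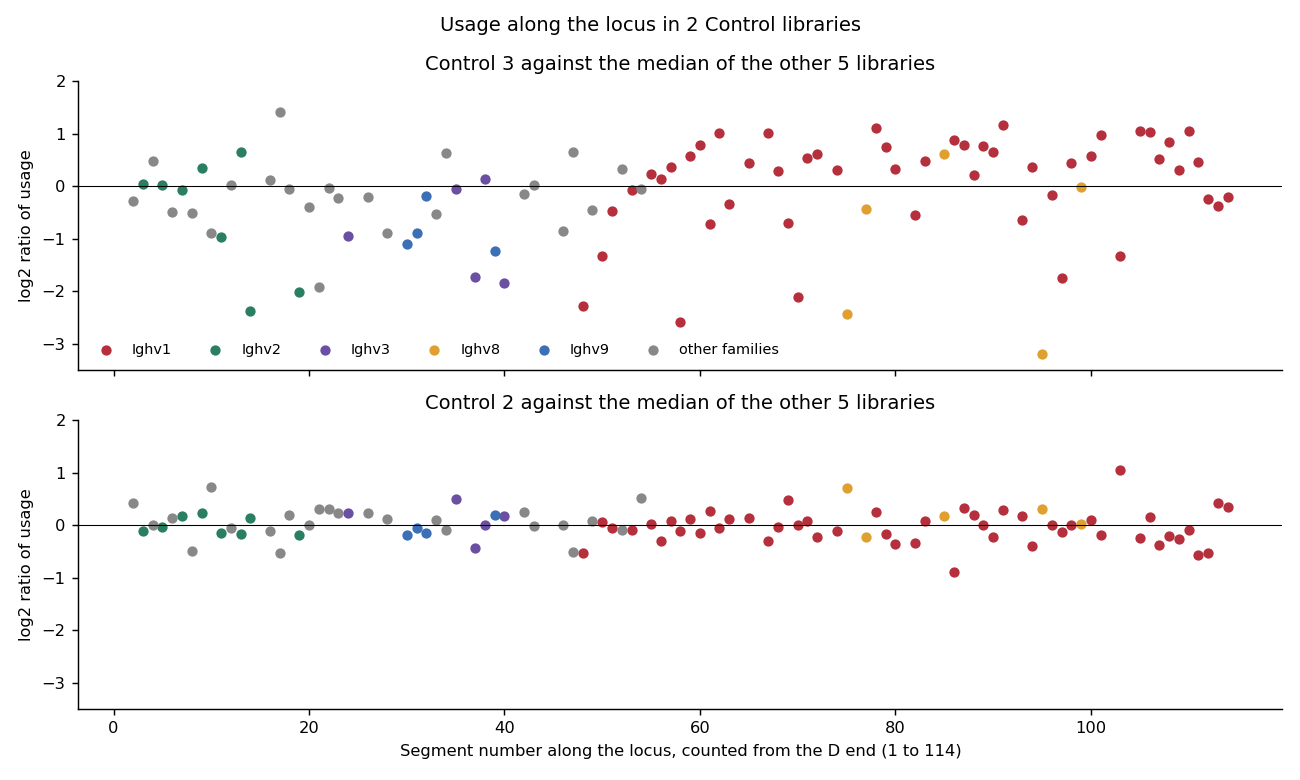
Log2 ratio of usage in Control 3 (top) and, for scale, Control 2 (bottom) to the median of the other 5 libraries, for the 96 segments with a mean usage of at least 0.1%, in order along the locus from the D end and coloured by family. In Control 3 the ratios run from -3.2 to 1.42 and distal Ighv1 segments lie mostly above 0, while those of Control 2 lie closer to the line.

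By family, Ighv1 held the largest share of the Ighv counts, 42.8%, 41.8% and 53.8% in Control and 42.2%, 42.4% and 42.5% in Prmt1-null libraries. Control 3 alone was high, and the groups overlapped (46.1% ± 6.68 against 42.3% ± 0.155, SD, n = 3 each, exact permutation p = 0.60). Without Control 3 the difference in means was 0.0434 percentage points (exact permutation p = 0.90). Ighv3, Ighv2 and Ighv9 were low in that library. Ighv3 held 11.9%, 12.4% and 7.13% against 11.5%, 10.9% and 11.9%, and Ighv9 held 10.2%, 8.84% and 6.54% against 10.3%, 9.06% and 9.50%, with all 4 Ighv9 segments below the other libraries in Control 3. The 6 pseudogenes held 0.867%, 0.749% and 0.447% against 0.631%, 0.781% and 0.770% (exact permutation p = 0.80, and 0.60 without Control 3).

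Of the 16 families, 3 did not overlap between the genotypes (18.8%, where 19.9% of all genes tested did not), each at the smallest exact permutation p of 0.10. The share was near that of all genes, and the values are given as a description. Ighv2 held 10.2%, 10.4% and 7.56% in Control against 10.5%, 10.7% and 11.1% in Prmt1-null libraries. The gap without Control 3 was small, with means of 10.3% and 10.8%. Ighv5, a family with members near the D segments, held 6.79%, 6.61% and 6.93% against 6.34%, 6.47% and 6.46%, a difference in means of -0.355 percentage points. Ighv11, a family of 2 segments known from B-1 cells, held 0.238%, 0.184% and 0.136% against 0.118%, 0.114% and 0.0451%. Without Control 3 these 3 and also Ighv3, Ighv10, Ighv12 and Ighv15 did not overlap, which was 7 of 16 (43.8%, where 33.3% of all genes did not). In Ighv3 the means were then 12.2% in Control and 11.4% in Prmt1-null libraries (exact permutation p = 0.20).

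**Figure D4:**
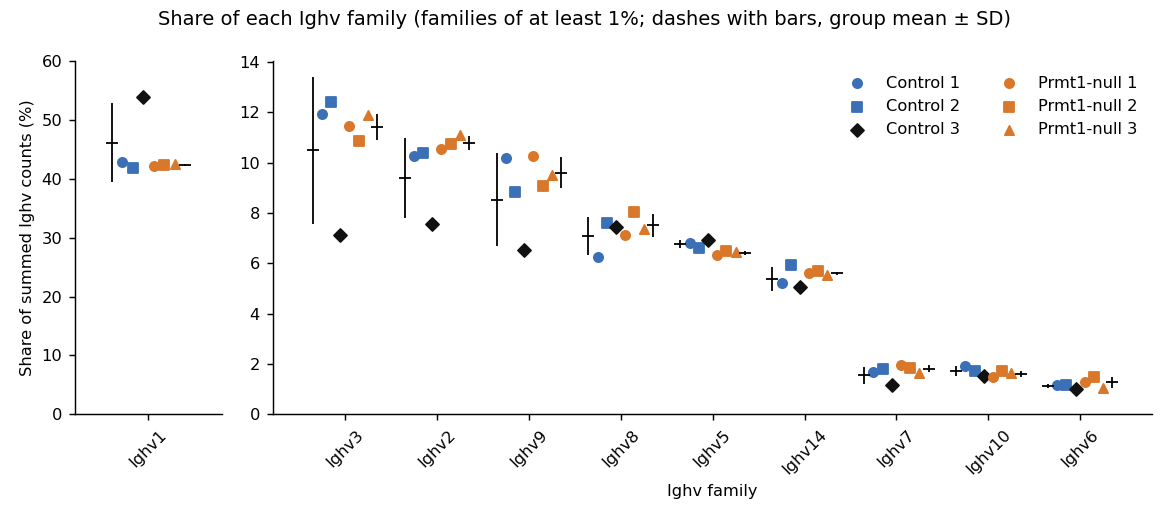
Share of the summed Ighv counts held by each Ighv family of at least 1%, with 1 point per library and the group mean ± SD (n = 3) as a dash with bars beside the points, and with the Ighv1 family on its own scale. Control 3 (black diamonds) is above the other libraries for Ighv1 (53.8%) and below them for Ighv3 (7.13%), Ighv2 (7.56%) and Ighv9 (6.54%).

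Prmt1-null and Control libraries were then compared gene by gene. No Ighv segment was called by edgeR's quasi-likelihood test (a call needed a Benjamini-Hochberg adjusted p below 0.05 and, on average, more than 100 normalized counts), out of 106 that were expressed enough to be tested, 83 of them with a mean over 100. Over all 18268 genes tested the share called was 1.18%, with 0.58% higher and 0.602% lower in Prmt1-null libraries. The lowest adjusted p of an Ighv gene was 0.218. An unadjusted p under 0.05 was reached by 9 Ighv segments, 8.49% of those tested against 13.5% of all genes. With each library left out in turn it ran from 3 of 107 (without Prmt1-null replicate 2) to 27 of 107 (without Control replicate 1). The share over all genes was not counted in either of those fits. DESeq2 and limma-voom also called none, where they called 4.08% and 1.36% of all genes.

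Without Control 3 the count of Ighv calls was again 0 of 106 while 1.79% of all genes were called. The lowest adjusted p by edgeR's test was then 0.162, and 7 segments had an unadjusted p under 0.05 (6.6% against 16.2% of all genes). Of the alternatives run, keeping genes with low counts in the fit was the one in which Ighv segments passed, the 4 of 113 being Ighv2-9, Ighv1-22, Ighv1-50 and Ighv1-81. That fit called 2.63% of all genes, and in each of the 4 segments Control 3 was the lowest or the highest library.

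In normalized counts, Control and Prmt1-null libraries were fully separated for 8 of the 106 segments. This was 7.55%, where 19.9% of all genes tested were separated. The segments were 1 higher (0.943%, against 9.95% of all genes) and 7 lower (6.6%, against 9.92%) in Prmt1-null libraries. Without Control 3 these were 24 segments (22.6% against 33.3% of all genes), 5 higher (4.72% against 17%) and 19 lower (17.9% against 16.3%). Fold changes (log2) of the segments had a median of -0.09, with 37 above and 69 below 0, where that of all genes was -0.00082. The median size of the change was 0.229 for Ighv genes and 0.145 for all genes. Leaving out Control 3 brought these to 0.137 and 0.175.

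The 3 segments with the largest fall among those with a mean over 100 were Ighv1-62-3, Ighv5-16 and Ighv1-50. Ighv1-62-3 had 100.84, 129.06 and 233.58 normalized counts in Control and 88.088, 62.685 and 106.82 in Prmt1-null libraries (log2 fold change -0.85, SE 0.321, edgeR's Benjamini-Hochberg adjusted p = 0.245). The groups overlapped at 1 value, and without Control 3 the change was -0.42. Ighv5-16 (-0.68, SE 0.342) and Ighv1-50 (-0.63, SE 0.305) came to -0.02 and -0.11 without that library.

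The 3 with the largest rise were Ighv2-9 (0.46, SE 0.318), Ighv8-11 (0.43, SE 0.474) and Ighv2-6 (0.40, SE 0.197), each of which was lowest in Control 3. Without Control 3 the changes were 0.06, -0.07 and 0.19. Ighv2-6 had a usage of 0.698%, 0.735% and 0.416% in Control and 0.817%, 0.821% and 0.924% in Prmt1-null libraries, and did not overlap with or without Control 3. As usage, which removes the overall level, 5 of the 114 segments did not overlap (Ighv2-6, Ighv2-9 and Ighv1-5 higher, Ighv1-39 and Ighv11-2 lower in Prmt1-null libraries), each at the smallest exact permutation p of 0.10. This was 4.39%, under the 19.9% of all genes that were separated in normalized counts. Without Control 3 these were 25 (21.9%, against 33.3% of all genes), of which 10 were higher and 15 lower.

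Ighv1-39 had 0.792%, 0.733% and 1.01% in Control against 0.450%, 0.696% and 0.694% in Prmt1-null libraries, and Ighv1-5 had 0.978%, 1.06% and 0.790% against 1.10%, 1.16% and 1.20%. Both gaps were narrow, and edgeR's adjusted p was 0.218 for Ighv1-39 and 0.539 for Ighv1-5.

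Ighv11-2, known from antibodies to phosphatidylcholine made by B-1 cells, was the segment with the lowest ratio between the groups among those that did not overlap. It had 46, 61 and 39 counts in Control and 22, 29 and 15 in Prmt1-null libraries, a usage of 0.127%, 0.117% and 0.0948% against 0.0511%, 0.0651% and 0.0322%. Every Control library lay above every Prmt1-null library, but with few counts, and the log2 fold change of -1.27 (SE 0.473) had an adjusted p of 0.238 by edgeR's quasi-likelihood test. Its mean of 35.9 normalized counts was also under the 100 that a call required. It was -1.37 without Control 3, and from -1.47 to -1.05 when each library was left out in turn. The neighbouring Ighv11-1 had 40, 35 and 17 counts against 29, 22 and 6. Of the sequence windows of Ighv11-1, 52.3% also occurred in Ighv11-2, and 38.6% of those of Ighv11-2 occurred in Ighv11-1. How reads were divided within this pair is thus uncertain, and the counts of Ighv11-1 cannot be taken as independent of those of Ighv11-2. In normalized counts the groups of Ighv11-1 overlapped through Control 3, and without that library they were separated (log2 fold change -1.10, SE 0.723, edgeR's adjusted p = 0.503). In usage they overlapped also without Control 3, with 0.0672% in Control 2 and 0.0673% in Prmt1-null 1. Ighv12-3, the other segment known for this specificity, had 0.144%, 0.156% and 0.129% against 0.144%, 0.0987% and 0.131% (log2 fold change -0.26, SE 0.345). Without Control 3 its groups were separated only by a near tie, 0.14403% in Control 1 against 0.1439% in Prmt1-null 1. The change was then -0.32 (SE 0.392, edgeR's adjusted p = 0.752).

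None of the 4 B-1 cell markers tested was called, which says little for so short a list when 1.18% of all genes were called. Their summed level was 81.7 to 94.1 CPM in Control, with Control 3 the highest, and 75.6 to 88.8 CPM in Prmt1-null libraries. Most of this sum came from Bhlhe41 and Spn, with means of 2337.8 and 1868.8 normalized counts, against 348.5 for Cd5 and 129.8 for Zbtb32. The authors purified naive B cells by depleting CD43+ cells or with an isolation kit, and CD43 is the product of Spn. The sum is thus no direct measure of B-1 cells. Cd5 had 290.38, 302.02 and 301.89 normalized counts in Control against 451.58, 399.16 and 345.97 in Prmt1-null libraries (edgeR's adjusted p = 0.212), and Bhlhe41 had 2400.8, 2435.5 and 2550.7 against 2192.1, 2585.8 and 1862.2. The log2 fold changes of the list were 0.42 for Cd5, 0.52 for Zbtb32, -0.04 for Spn and -0.15 for Bhlhe41, so that 2 were above and 2 below 0. The part of B-1 cells in the Ighv11-2 values was not tested.

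Ighv1-72 did not differ between the groups beyond its spread (log2 fold change -0.22, SE 0.276). Leaving out Control 3 turned the value to 0.31 (SE 0.184, edgeR's adjusted p = 0.442). Ighv5-2, the functional V segment nearest to the D segments, had 0.188%, 0.292% and 0.182% in Control against 0.258%, 0.218% and 0.221%, with a log2 fold change of -0.0046 (SE 0.279). Among the leading segments the log2 fold change was 0.07 (SE 0.0847) for Ighv9-3, from 0.0182 to 0.12 with each library left out in turn, and -0.17 (SE 0.103) for Ighv3-6, from -0.23 to -0.0678, whereas for Ighv3-8 the change was 0.20 (SE 0.319) with and -0.20 (SE 0.0816, edgeR's adjusted p = 0.236) without Control 3.

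Usage profiles as a whole were set against genotype by the mean distance between libraries of different groups minus that within groups. It was 0.0004 over all libraries (exact permutation p = 0.40 over the 10 splits) and 0.0063 without Control 3 (exact permutation p = 0.10, the smallest that 2 against 3 libraries allow). The 5 libraries other than Control 3 thus differed between genotypes by an amount that this number of libraries cannot separate from their spread.

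The Ighv counts were also set against heavy chain constant genes and against the kappa light chain. In a complete heavy chain transcript the V segment is spliced to a constant gene. Counts of a constant gene may also come from germline transcripts, which hold no V segment, and their share was not tested. All the ratios have the same numerator, so they are not independent of each other. Per 1000 counts of Ighm, which encodes the IgM heavy chain, there were 90.1, 92.1 and 84.8 Ighv counts in Control and 87.7, 87.9 and 86.9 in Prmt1-null libraries. These overlapped through Control 3, and without it they did not (means 91.1 and 87.5, exact permutation p = 0.10, the smallest possible). Per 1000 counts of Ighg1, the IgG1 heavy chain, there were 992, 962 and 987 against 758, 693 and 861, and per 1000 counts of Igkc, the kappa light chain, 509, 493 and 450 against 435, 429 and 423. Neither of these overlapped, nor did the ratio to the IgE gene Ighe (684, 724 and 880 against 675, 602 and 670), at the smallest exact permutation p of 0.10 each, among 4 ratios. Without Control 3 all 4 ratios were separated, each lower in Prmt1-null libraries, with an exact permutation p of 0.10 for Ighm and Igkc and of 0.20 for Ighg1 and Ighe. The 7 constant genes tested had a median log2 fold change of 0.47, with 6 above 0 (9114 of 18268 over all genes) and none called (1.18% over all genes). Ighg1 itself changed by 0.29 (SE 0.0686) with an adjusted p of 0.0626 by edgeR's test.

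Genes that act on the segments were checked as lists, and in each the count called was 0, where 1.18% of all genes were called. Of the recombination factors 8 were tested, with a median log2 fold change of 0.02. Among them Rag1, a subunit of the recombinase, had 0 to 24.24 normalized counts in any library, and Prkdc, the kinase of end joining, had 6857 to 8768.5. Of the factors that act on heavy chain transcription 14 were tested (the symbol Ebf1 stood for 2 rows) with a median of -0.01. Pou2af1, the coactivator of octamer-bearing V promoters, had 358130, 331660 and 349360 against 331230, 328530 and 340840. Of the D and J segments 15 were tested, with a median of 0.14. All 9 antibody assembly genes tested were above 0, with a median of 0.15, such as Hspa5, the chaperone that holds free heavy chains, at 0.22 (SE 0.0741, edgeR's adjusted p = 0.185).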

How the data were processed

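RNA-seq libraries of iGBs were analysed from the raw exon count table deposited by the authors, which holds whole-number counts per gene. The authors had trimmed reads (Trimmomatic 0.32), mapped them to the mm10 build (STAR 2.3.0e) and counted primary alignments of reads with at most 2 matches over Ensembl gene models with featureCounts 1.4.4. The strand setting was not given in the sources used here. Columns were assigned to samples by the sample titles.

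The 114 Ighv genes were matched to GENCODE M21 by identifier (105) or symbol (9), and 3 identifiers carry another symbol there. Usage was a segment's count over the summed Ighv counts of the library. Differences between 3 and 3 libraries were tested by two-sided exact permutation over 20 arrangements. All genes passing filterByExpr (minimum count 10), without 398 genes of chromosome Y, were fitted with edgeR 4.0.16 (TMM, quasi-likelihood, unpaired) in R 4.3.3, with Benjamini-Hochberg adjustment over 18268 genes. The common biological coefficient of variation was 0.154. The model was tested on simulated data. DESeq2 1.42.0 and limma 3.58.1 (voom) were alternatives, as were other normalization, no filter, a replicate block, sex as a covariate, counts per kilobase and leaving out each library in turn. Intervals are 95% Wilson intervals and, like limits of 3 counts, cover counting error only, since reads carried no molecular identifiers.

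Segments named were the 12 of highest usage, any called, the 3 largest rises and falls with a mean over 100, and Ighv1-72, Ighv11-2, Ighv12-3 and Ighv5-2. Others were named after their values were seen. The members and gene lists were chosen with earlier results of these data known.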

Additional observations from a re-analysis of the deposited data

How the results depend on the processing

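Every p-value rests on at most 3 mice per group (2 Control mice without Control 3), and both depth, for segments of few counts, and reads common to near-identical segments limit the precision of single segments. Of 502 values under an alternative, 458 kept their direction and side of the threshold, 41 changed direction, 2 newly passed it (Ighv2-9 and Ighv1-50 with no filter on low counts) and 1 count moved. The count of Ighv calls was 0 under each alternative, including leaving out each library (0 to 0), except with no filter on low counts, which called 4 of 113 and 2.63% of all genes. Over all genes the share called ran from 0.166% without Prmt1-null replicate 2 (31 genes) to 4.08% with DESeq2, so that some of these zeros come from fits that called few genes of any kind. The cause was not tested.

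No pairing by replicate number was seen, as deviations of same-numbered libraries correlated at -0.0716, 0.0482 and -0.0772. Libraries of different numbers correlated at -0.0715 to 0.124, and so few libraries cannot exclude a pairing. With the replicate block the Ighv count of calls was 0 and the count over all genes 151 instead of 216. The block turned Ighv14-2 to 0.0020 and Ighv5-2 to 0.0268 (log2), and Ighv5-2 was also turned with no filter (0.00027) and with sex as a covariate (0.0061).

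Leaving out each library in turn gave these ranges of the difference, Prmt1-null minus Control, in percentage points unless stated: Ighv share of all counts -0.00595 to -0.00245, effective number -0.83 to 1.20 segments, 10 leading segments -0.102 to 0.518, Ighv1 family -5.98 to 0.0434, pseudogenes -0.0807 to 0.129, and between minus within distance -0.0299 to 0.0429. The share of the 10 leading segments, taken in each library by its own ranking, also turned per kilobase (-0.0913). It turned too without segments sharing over 50% of their windows (-0.101), an alternative chosen after seeing the data.

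For single segments the ranges of usage were -0.481 to 1.54 for Ighv3-8, -0.675 to 0.146 for Ighv8-8, -0.0373 to 0.707 for Ighv3-1, -0.0353 to 0.686 for Ighv1-4, -0.0448 to 0.745 for Ighv9-1, -0.0322 to 0.250 for Ighv14-2, -0.321 to 0.00573 for Ighv5-16, -0.00058 to 0.413 for Ighv8-11, -0.43 to 0.292 for Ighv1-72 and -0.00787 to 0.0469 for Ighv5-2. On the log2 scale they were -0.20 to 0.52 for Ighv3-8, -0.41 to 0.0091 for Ighv8-8, -0.07 to 0.12 for Ighv8-12, -0.0833 to 0.40 for Ighv3-1, -0.0847 to 0.47 for Ighv1-4, -0.0838 to 0.50 for Ighv9-1, -0.0736 to 1.03 for Ighv8-11, -0.51 to 0.31 for Ighv1-72, -0.0892 to 0.14 for Ighv14-2 and -0.12 to 0.27 for Ighv5-2. Of 21 named segments, 10 turned in usage and 7 in log2 fold change without Control 3. Removing segments with windows repeated in a genome was not run, as no genome was used here, and transcripts took its place. Counts per kilobase give no separate value for the Ighv share of all counts, nor does removing pseudogenes for the pseudogene share.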
